A study of Mus musculus with 12 samples.

Results

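The 10 genes described here encode subunits of the transcription factor NF-kB and inhibitors that inflamed cells make in response to it or to cytokines. They were taken as a list of named genes and not by a cut on their values, but with earlier results of these data known. They are 10 of the 37074 genes and 18 of the 56605 probes measured. Nfkb1, Nfkb2 and Relb are subunits. Nfkbia, Nfkbiz and Bcl3 are members of the IkB family, Tnfaip3 encodes the ubiquitin-editing protein A20, Zfp36 encodes the mRNA decay factor tristetraprolin, and Socs1 and Cish encode suppressors of cytokine signaling. The name feedback inhibitors is not exact for all of them, since Zfp36 acts on mRNAs, Socs1 and Cish act on the JAK-STAT pathway, and Nfkbiz and Bcl3 act in the nucleus, where they can raise as well as lower the transcription of target genes.

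In resting cells NF-kB dimers are held in the cytoplasm by IkB proteins such as the product of Nfkbia. Signals from Toll-like receptors, the TNF receptor or the IL-1 receptor activate the IKK kinases, the IkB protein is degraded, and the dimers enter the nucleus. Among the first targets are the genes of the inhibitors themselves, so that their mRNAs are widely used as a readout of the pathway in injured or inflamed tissue. In the gut wall the pathway operates in epithelium, mesothelium, stroma and in the leukocytes that enter after injury.

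RNA was extracted from the cecum of C57BL/6 mice and hybridised to 12 Agilent SurePrint G3 Mouse GE 1-colour arrays. The brightness of a spot measures the RNA that binds its probe. The series asked which genes change while a peritoneal adhesion forms, and for that purpose the cecum was cauterized with bipolar forceps under pentobarbital anesthesia through a midline incision. There were 4 groups of 3 mice, namely a sham control and tissue taken at 3, 12 or 72 h after cauterization. The labels name no transgene or gene deletion, and the age of the mice was not given in the sources used here. The methods place the sham control at 0 h after its operation while the labels do not settle its time, and there was 1 sham group, so that the effects of cauterization, of surgery and of time after surgery cannot be told apart.

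All mice were labelled male, and the arrays go against this label. Xist was well above background on 12 of 12 arrays, the probes of the Y-linked genes Ddx3y and Eif2s3y on 0 arrays, 1 probe of Uty on 1 array and 1 of the 6 probes of Kdm5d on 12. The 14 markers of epithelium were above background on all arrays, in keeping with cecum as the labelled tissue. Each array had from 60.2% to 65.2% of its probes well above background, and 0 spots were saturated. The sham and 3 h arrays lay on 1 slide together with replicates 1 and 2 of the 12 h group, and replicate 3 of the 12 h group lay on the other slide with the 72 h arrays, so that slide and 72 h group are separated through 1 array. Levels are given as log2 intensity relative to the 75th percentile of the array, and 1 unit is a 2-fold difference on the same probe.

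All 10 genes were higher in the cauterized cecum at 3 h, 7 were higher at 12 h and 5 were higher at 72 h. A gene was called where it differed by more than 2-fold with a limma adjusted p below 0.05, and by that rule the shares of the 37074 genes called higher at the 3 times were 3.26%, 4.10% and 4.55%. The median log2 difference from sham of the 10 genes was 1.71, 1.74 and 0.88, and that of all genes was 0.08, -0.01 and -0.14. The 3 arrays of the time point lay fully above the 3 sham arrays for 10, 9 and 8 of the 10 genes at 3, 12 and 72 h, and this held for 28.8%, 15.4% and 12.7% of the 37011 genes with a value on every array. The 3 comparisons share the sham arrays. In whole tissue, fewer cells of a type and less RNA per cell cannot be told apart.

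**Figure D1:**
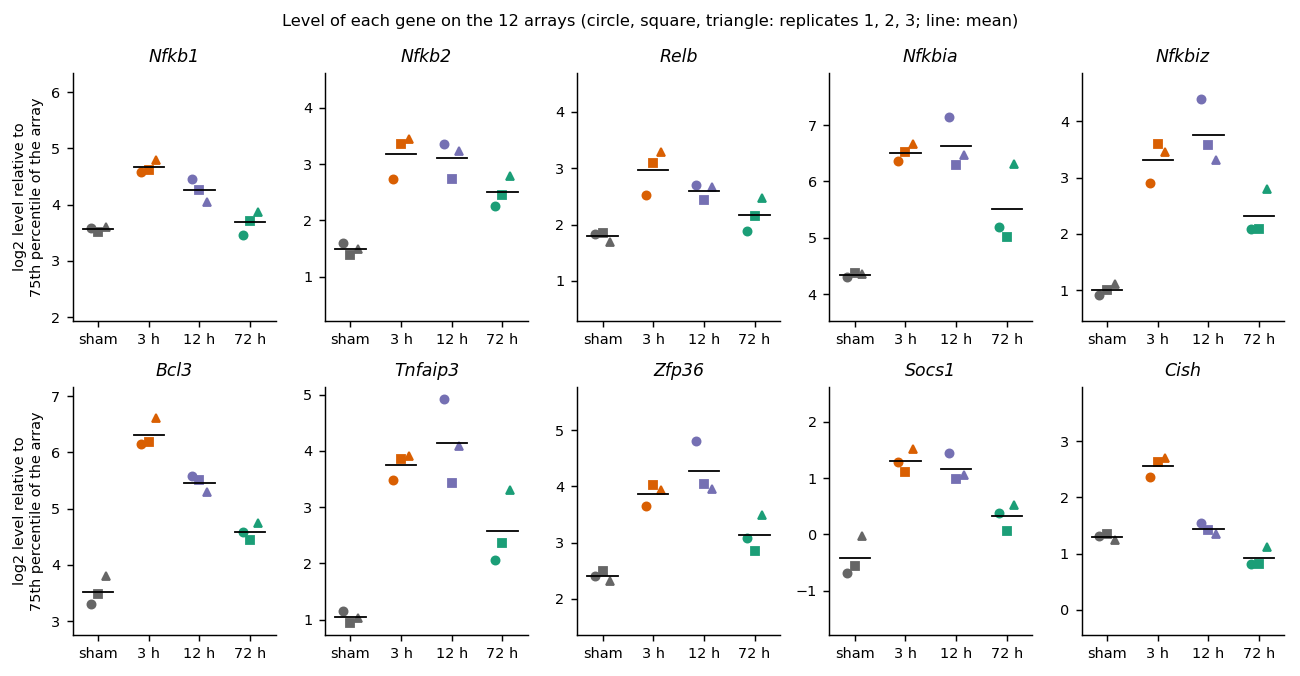
Level of each of the 10 genes on the 12 arrays, on its brightest probe, as log2 intensity relative to the 75th percentile of the array (every panel spans the same number of log2 units, and the line marks the mean of 3 arrays). The 3 h arrays sit above the sham arrays in every panel, and those of Cish overlap the sham arrays at 12 h.

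The 3 subunits rose at 3 h, and 1 of them was still called at 12 and 72 h. Nfkb1 encodes p105, the precursor of p50. Its level was 3.58, 3.51 and 3.60 in sham, 4.57, 4.62 and 4.80 at 3 h, 4.45, 4.27 and 4.05 at 12 h, then 3.47, 3.70 and 3.88 at 72 h. The 3 h arrays formed a tight group well above sham, and the 72 h arrays overlapped those of sham. The log2 difference from sham was 1.10 ± 0.14 (SE) at 3 h with a limma adjusted p of 0.000673, 0.69 at 12 h, which is under 2-fold, and 0.12 at 72 h.

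Nfkb2 encodes p100, the precursor of p52 and itself an inhibitor of Relb. It stood at 1.60, 1.39 and 1.49 in sham, 2.73, 3.35 and 3.44 at 3 h, 3.36, 2.73 and 3.24 at 12 h, then 2.26, 2.45 and 2.78 at 72 h. All 9 arrays after cauterization lay above all 3 sham arrays. The log2 differences at 3, 12 and 72 h were 1.68 ± 0.23 (SE), 1.62 ± 0.23 and 1.01 ± 0.23, with limma adjusted p-values of 0.000984, 0.000875 and 0.0121. The 72 h value is only just past 2-fold. Relb, which pairs with p52 or p50, stood at 1.84, 1.84 and 1.69 in sham, 2.52, 3.10 and 3.29 at 3 h, 2.70, 2.43 and 2.67 at 12 h, then 1.88, 2.15 and 2.47 at 72 h. The 72 h arrays came down to just above the sham range. Its log2 difference was 1.18 ± 0.21 (SE) at 3 h, with a limma adjusted p of 0.00363, and the values of 0.81 at 12 h and 0.38 at 72 h were not called.

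The 3 genes of the IkB family gave some of the largest differences of the list and were called at all 3 times. Nfkbia encodes IkBα, the inhibitor whose loss and resynthesis times the response. Its level was 4.30, 4.38 and 4.36 in sham, 6.36, 6.52 and 6.66 at 3 h, 7.15, 6.30 and 6.47 at 12 h, then 5.19, 5.01 and 6.31 at 72 h. At 72 h replicate 3 stood at the level of the 12 h arrays while the other 2 arrays lay more than 1 unit below it. The log2 differences at 3, 12 and 72 h were 2.17 ± 0.32 (SE), 2.29 ± 0.32 and 1.16 ± 0.32, with limma adjusted p-values of 0.00154, 0.000827 and 0.029.

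Nfkbiz encodes IkBζ, a nuclear IkB protein needed for a set of late targets such as Il6. It stood at 0.91, 1.0 and 1.11 in sham, 2.90, 3.60 and 3.45 at 3 h, 4.39, 3.57 and 3.31 at 12 h, then 2.09, 2.09 and 2.79 at 72 h. The arrays of 3 h and 12 h overlapped and both lay above those of 72 h, which in turn lay above sham. The log2 differences at 3, 12 and 72 h were 2.31 ± 0.30 (SE), 2.75 ± 0.30 and 1.31 ± 0.30, with limma adjusted p-values of 0.000791, 0.00021 and 0.0127.

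Bcl3 encodes a nuclear IkB protein that binds p50 and p52 homodimers. Its level was 3.30, 3.47 and 3.80 in sham, 6.15, 6.18 and 6.61 at 3 h, 5.58, 5.52 and 5.29 at 12 h, then 4.58, 4.44 and 4.74 at 72 h. The 4 groups did not overlap, and each later time lay below the one before. The log2 difference from sham was 2.79 ± 0.17 (SE) at 3 h, a 6.92-fold rise with a limma adjusted p of 1.42e-05, then 1.94 ± 0.17 at 12 h and 1.06 ± 0.17 at 72 h.

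Tnfaip3 gave the largest difference of the 10 genes at 12 h and at 72 h. A20, its product, removes and edits ubiquitin chains on the receptor complexes that activate IKK. The level was 1.16, 0.94 and 1.02 in sham, 3.48, 3.85 and 3.91 at 3 h, 4.93, 3.42 and 4.08 at 12 h, then 2.06, 2.36 and 3.31 at 72 h. Replicate 1 of the 12 h group and replicate 3 of the 72 h group stood apart upwards. The log2 differences at 3, 12 and 72 h were 2.71 ± 0.38 (SE), 3.10 ± 0.38 (8.59-fold) and 1.54 ± 0.38, with limma adjusted p-values of 0.00124, 0.000413 and 0.0188.

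Zfp36, whose product removes cytokine mRNAs that carry AU-rich elements, was called at 3 and 12 h. It stood at 2.40, 2.49 and 2.31 in sham, 3.64, 4.02 and 3.93 at 3 h, 4.82, 4.05 and 3.95 at 12 h, then 3.08, 2.85 and 3.49 at 72 h. The 72 h arrays were still above sham, without overlap. The log2 difference was 1.46 ± 0.24 (SE) at 3 h and 1.87 ± 0.24 at 12 h, with limma adjusted p-values of 0.00247 and 0.00048, and 0.74 at 72 h with 0.0536.

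Both suppressors of cytokine signaling were called at 3 h and Socs1 alone at 12 h, a difference between the genes that was not tested. Socs1, which inhibits JAK kinases downstream of interferons, stood at -0.68, -0.57 and -0.04 in sham, 1.29, 1.11 and 1.51 at 3 h, 1.44, 0.98 and 1.05 at 12 h, then 0.38, 0.06 and 0.52 at 72 h. The 3 and 12 h arrays were intermingled, and the 72 h arrays lay between them and sham. Its log2 difference was 1.73 ± 0.21 (SE) at 3 h and 1.58 ± 0.21 at 12 h, with limma adjusted p-values of 0.000499 and 0.000557, and 0.75 at 72 h, under 2-fold. Cish, a STAT5 target that restrains cytokine receptors, stood at 1.30, 1.35 and 1.25 in sham, 2.36, 2.62 and 2.70 at 3 h, 1.55, 1.43 and 1.35 at 12 h, then 0.82, 0.82 and 1.11 at 72 h. It was high at 3 h alone, overlapped sham at 12 h and was below all sham arrays at 72 h, as were 24.9% of all genes. The log2 difference was 1.26 ± 0.13 (SE) at 3 h with a limma adjusted p of 0.000208, 0.14 at 12 h (95% confidence interval -0.14 to 0.42) and -0.39 at 72 h with a limma adjusted p of 0.0584.

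**Figure D2:**
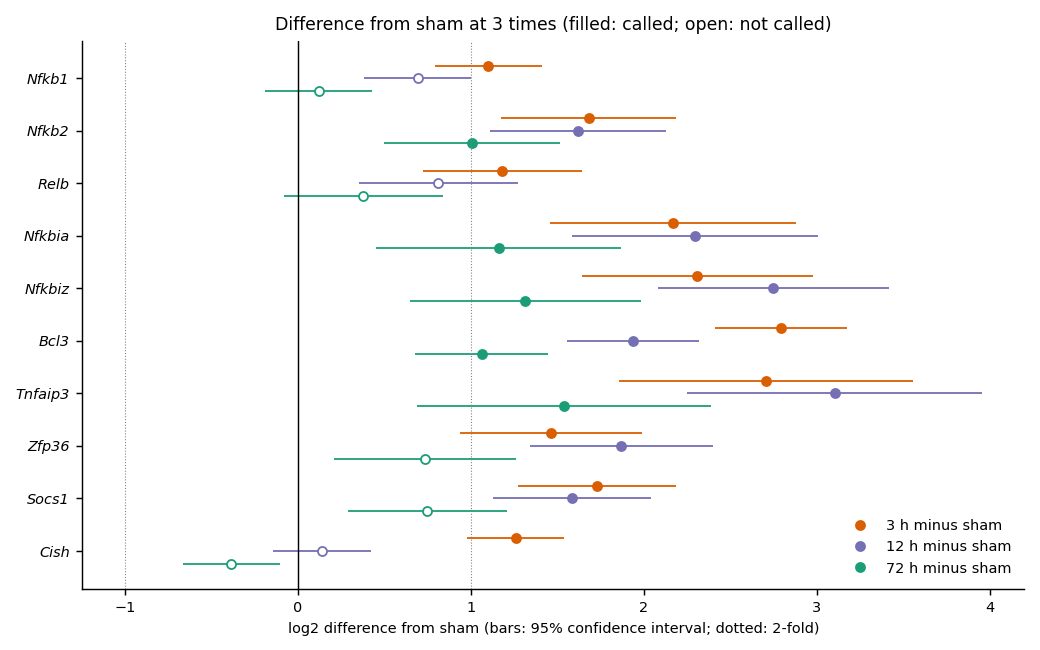
Log2 difference from sham of each gene at 3, 12 and 72 h, with the 95% confidence interval of the limma fit as bars; filled points were called and open points were not. At 12 h the open points are Nfkb1, Relb and Cish, and at 72 h Cish is the only gene left of zero.

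At 3 h the sham and cauterized arrays shared a slide, and with slide as a block the count of called genes stayed at 10 at 3 h and 7 at 12 h. The call of Nfkb1 at 3 h was lost with quantile normalization, where its log2 difference was 0.86, with the percentile taken over bright probes (0.99) and with the mean of all its probes (0.84), and that of Relb was lost with the mean of its probes (0.70). The call of Bcl3 at 12 h was lost with the mean of its probes (0.99), of which 1 was not above background on any array. The calls at 72 h changed with slide as a block and with single arrays left out. With slide as a block 0 of 10 genes were called at 72 h, with log2 differences of 0.81 for Nfkb2, 1.42 for Nfkbia, 1.99 for Nfkbiz, 1.32 for Bcl3 and 1.63 for Tnfaip3 and limma adjusted p-values from 0.0543 for Bcl3 to 0.31 for Nfkb2. Without the block these differences were 1.01, 1.16, 1.31, 1.06 and 1.54. The block also cut the calls over all genes at 72 h, from 1687 higher and 1595 lower to 591 and 561. Its slide effect rests on 1 array, replicate 3 of the 12 h group, so the lost calls do not separate slide from a loss of precision. Without replicate 3 of the 72 h group 1 gene was called at 72 h (Nfkbiz), without sham replicate 1 there were 3 and without sham replicate 2 there were 2.

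Between 3 and 12 h, Cish was the 1 gene that passed the rule, where 1.56% of all genes were called lower. It fell by 1.12 ± 0.13 (SE) on the log2 scale with a limma adjusted p of 0.00156. Bcl3 was 0.85 lower at 12 h than at 3 h with a limma adjusted p of 0.0158, and its arrays did not overlap, but the difference was under 2-fold. The differences of Nfkbia, Nfkbiz, Tnfaip3 and Zfp36 between these times were from 0.12 to 0.44 upwards, each with an interval that held zero, such as -0.59 to 0.84 for Nfkbia.

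From 12 to 72 h 4 genes fell, namely Nfkbia by 1.13, Nfkbiz by 1.43, Tnfaip3 by 1.57 and Zfp36 by 1.13 on the log2 scale, where 3.19% of all genes were called lower. The limma adjusted p-values were 0.0349, 0.00965, 0.0193 and 0.00957. The other 6 genes were lower at 72 h as well, by 0.43 to 0.88, and were not called. Most of this comparison is also one between slides. With slide as a block, the comparison equals replicate 3 of the 12 h group against the 72 h arrays on its slide. The differences of those 4 genes were then -0.96, -0.98, -1.51 and -0.82, and a call cannot rest on 1 array at 12 h. Without replicate 1 of the 12 h group 1 gene was called, without replicate 1 of the 72 h group there were 2 and without replicate 2 of the 72 h group there was 1.

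From 3 to 72 h 4 genes fell, where 5.51% of all genes were called lower. Bcl3 fell by 1.73 ± 0.17 (SE), Cish by 1.64 ± 0.13, Tnfaip3 by 1.17 ± 0.38 and Nfkbia by 1.01 ± 0.32 on the log2 scale, with limma adjusted p-values of 0.000135, 4.59e-05, 0.0387 and 0.0351. All 10 genes were lower at 72 h by 0.68 to 1.73, a comparison in which the median of all genes was -0.26. The arrays of 72 h lay fully below those of 3 h for 9 of the 10, and this held for 41.6% of all genes. With slide as a block, Bcl3 (-1.47) and Cish (-1.50) were the 2 genes still called, and without 3 h replicate 3 or 72 h replicate 2 the count was 2, whereas without 72 h replicate 3 it was 7.

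The genes also moved together between arrays of the same group. Replicate 1 of the 12 h group was the highest of its 3 arrays for 10 of the 10 genes and replicate 3 of the 72 h group was so for 10 of 10, while these arrays were the highest of their 3 for 27.2% and 31.5% of all genes. Replicate 3 of the 3 h group was the highest for 8 of 10, against 24.5% of all genes. After quantile normalization the counts were 9, 10 and 8. In sham the 3 arrays were highest for 2, 4 and 4 genes. For Tnfaip3 the spread within the 12 h group, from 3.42 to 4.93, was close to the difference of 1.57 between the 12 h and 72 h means. The genes were not chosen by these ranks, and no test was made of them.

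**Figure D3:**
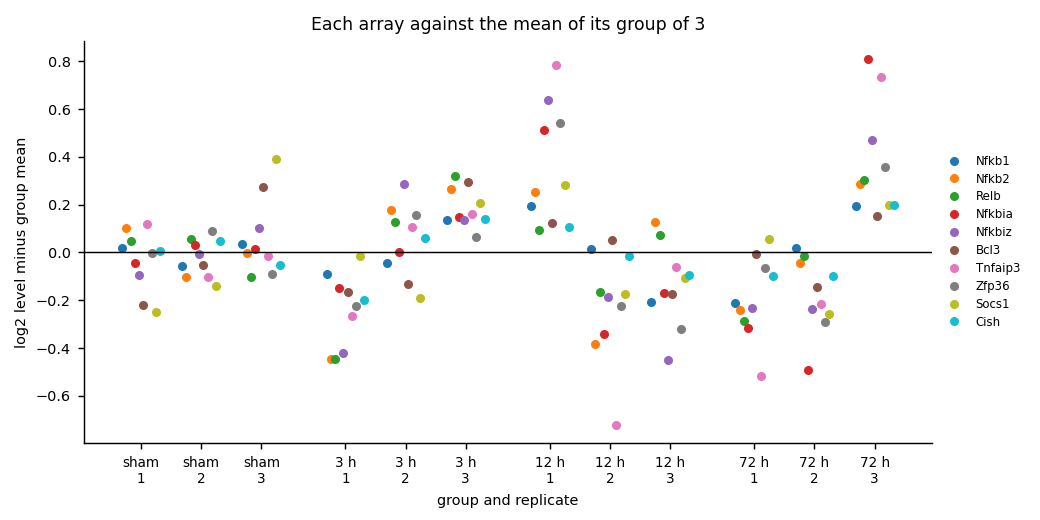
Log2 level of each of the 10 genes on each array minus the mean of its group of 3 arrays, with 1 colour for each gene. The points of 12 h replicate 1 and of 72 h replicate 3 lie above zero for all 10 genes, and those of 3 h replicate 1 lie below zero for all 10.

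Markers of other cell types moved with time and with some of these arrays. The summed level of 12 neutrophil markers, on a linear scale relative to the 75th percentile, ranged from 81.5 to 92.6 in sham, then from 360 to 599 at 3 h, from 823 to 862 at 12 h and from 350 to 637 at 72 h, and 9 of the 12 genes were called higher at 12 h. Csf3r made up most of the sham sum, at log2 levels of 6.47, 6.24 and 6.39, and was lower by 0.44 at 3 h, not called. At 3 h 7 of the 12 genes were called higher and 0 lower, with S100a8 and S100a9 higher by 10.79 and 10.06 on the log2 scale. The highest values at 12 and 72 h were on replicate 1 (862) and replicate 3 (637), the arrays on which the 10 genes stood highest, while at 3 h the highest sum was on replicate 2. The sums of the macrophage, T cell and B cell markers were each highest on all 3 arrays named above, replicate 3 at 3 h, replicate 1 at 12 h and replicate 3 at 72 h. For the macrophage markers the next highest array was close, with 179.7 against 171 at 3 h, 209.2 against 208.6 at 12 h and 129.4 against 129 at 72 h. For the 8 B cell markers the sums on the 3 named arrays were 23.0, 30.9 and 13.7, against 1.32 and 8.43, 13.0 and 20.8, and 5.11 and 12.7 on the other arrays of the same groups. For 7 T cell markers they were 14.8, 20.6 and 11.5, and the next highest were 9.97, 16.0 and 11.1. Of the neutrophil markers, Cxcr2, Ltf and Ngp were above background on 0 sham arrays. The sum of 10 macrophage and monocyte markers was 47.8 to 85.2 in sham, 144 to 180 at 3 h, 196 to 209 at 12 h and 120 to 129 at 72 h. The macrophage genes did not all follow their sum: 1 was called higher and 2 lower at 3 h, 5 higher and 1 lower at 12 h and 7 higher at 72 h. From 12 to 72 h, where the sum was lower, 5 were called higher and 1 lower, namely Ly6c2, which fell by 2.52 on the log2 scale. Ly6c2 stood at 7.46, 7.45 and 7.32 at 12 h and made up most of the sum at that time. The sum of 8 smooth muscle markers fell from 522 to 555 in sham to 161 to 258 at 12 h, with 8 of 8 genes called lower. Of 6 mesothelial markers 2 were called lower and 4 were not called at 3 h and at 12 h, and 2 were called higher at 72 h. The 2 lower ones, Upk3b and Lrrn4, were above background on 0 arrays at 3 and 12 h, while the log2 differences at 3 h of Wt1, Upk1b, Krt19 and Msln were 0.02, 0.60, 0.48 and -2.06. The value of Msln rests on 1 array, since its levels were -5.18, 0.59 and 1.17 at 3 h and 1.09, 0.54 and 1.13 in sham. Of the B cell markers 0 of 8 were called at any time. Of the T cell markers 1 was called lower at 3 h, and of 6 endothelial markers 2 were called higher at 72 h. The 14 epithelial markers summed to 2701 to 2816 in sham, 3164 to 3408 at 3 h and 1414 to 1915 at 72 h. The part of these shifts in the differences of the 10 genes was not tested.

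For 5 of the genes the array holds more than 1 probe, and of the 8 further probes 3 gave differences from sham at 3 h within 0.1 of the brightest probe. The second probe of Nfkb2, at chr19:46386146-46386285 on the plus strand (mm9) beside the first at chr19:46386440-46386499, gave 1.73 at 3 h and 1.59 at 12 h, both called, and 0.81 at 72 h, under 2-fold. Probe 3 of Nfkb1 gave 1.18 and probe 2 of Relb 1.11 at 3 h. The second probe of Nfkbiz gave lower differences than the first, 1.54 at 3 h and 1.94 at 12 h, both called, and 0.73 at 72 h with a limma adjusted p of 0.111. The 72 h calls of Nfkb2 and Nfkbiz thus rest on their brightest probes. Probe 2 of Nfkb1 differed from the other probes of the gene at 3 h. It lies at chr3:135275144-135275203 on the minus strand, away from probe 1 at chr3:135247898-135247958 and probe 3 at chr3:135254550-135254609, and was designed on an Ensembl transcript. Its log2 difference was 0.25 at 3 h, not called, and 0.65 at 12 h, where probes 1 and 3 gave 0.69 and 0.79 and none of the 3 was called. Probe 3 of Relb, at chr7:20203058-20203117 on the minus strand and away from probe 1 at chr7:20191722-20191781, was designed on an Ensembl transcript too and gave -0.20, -0.09 and 0.09 at 3, 12 and 72 h, and its arrays overlapped sham at every time. The third probe of Nfkbiz and the second of Bcl3, also designed on Ensembl transcripts, were above background on 0 of 12 arrays and give no level. Counted as probes, 14 of 18 were called higher at 3 h (2.96% of all probes), 9 at 12 h (3.85%) and 5 at 72 h (4.13%). Exons were not assigned, since no annotation of mm9 was used.

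**Figure D4:**
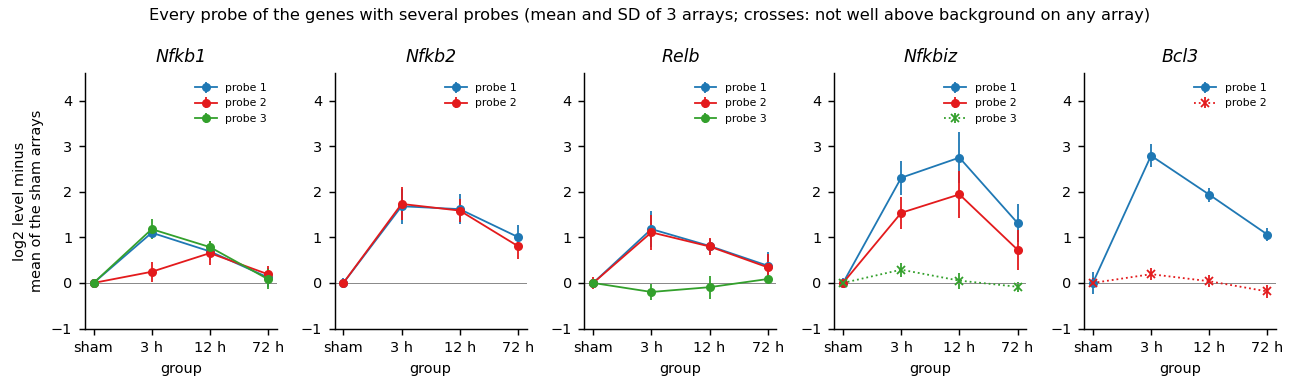
Mean log2 level of every probe minus its own sham mean, by group, for the 5 genes with more than 1 probe; bars are the SD of 3 arrays and crosses mark probes not well above background on any array. Probe 2 of Nfkb1 and probe 3 of Relb lie at 0.25 and -0.20 at 3 h, where the other probes of these genes rise by about 1.1 to 1.2.

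The promoters of several of these genes hold motifs of the factors named above. Shown are 3 of genes that were called at 3, 12 and 72 h and that of Cish, which was called at 3 h alone. RefSeq promoter windows of GRCm38.p6, 250 bases before to 50 after the start, were found for 7 of the 10 genes (10 windows) and not for Nfkb1, Relb and Nfkbiz. The kappaB consensus, searched on both strands, was in windows of Nfkb2, Nfkbia, Bcl3 and Tnfaip3 and in 8.46% of all 32851 windows. The STAT motif TTCNNNGAA was in windows of Nfkb2, Zfp36 and Cish and in 8.30% of all windows. Below are the 250 bases before the start, 5′ to 3′ on the strand of the gene, with matches of the kappaB consensus on either strand in capitals, for Nfkb2 (chr19:46304487-46304736, plus strand), Nfkbia (chr12:55492648-55492897, minus strand), Tnfaip3 (chr10:19015411-19015660, minus strand) and Cish (chr9:107296409-107296658, plus strand).
Nfkb2: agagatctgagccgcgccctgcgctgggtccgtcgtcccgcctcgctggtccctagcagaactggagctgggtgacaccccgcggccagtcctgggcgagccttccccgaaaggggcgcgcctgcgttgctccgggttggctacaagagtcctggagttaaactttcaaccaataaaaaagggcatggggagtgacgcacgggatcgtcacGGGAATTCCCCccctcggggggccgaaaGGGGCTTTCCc
Nfkbia: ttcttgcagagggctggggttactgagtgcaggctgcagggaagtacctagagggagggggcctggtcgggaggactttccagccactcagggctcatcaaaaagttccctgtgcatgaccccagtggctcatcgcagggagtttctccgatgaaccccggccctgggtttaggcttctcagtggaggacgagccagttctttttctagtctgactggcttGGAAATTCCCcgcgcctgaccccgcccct
Tnfaip3: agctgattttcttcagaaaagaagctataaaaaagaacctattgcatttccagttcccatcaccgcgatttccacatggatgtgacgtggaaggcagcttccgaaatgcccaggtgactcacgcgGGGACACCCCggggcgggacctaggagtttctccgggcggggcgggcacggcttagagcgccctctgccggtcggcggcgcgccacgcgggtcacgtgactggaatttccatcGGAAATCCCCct
Cish: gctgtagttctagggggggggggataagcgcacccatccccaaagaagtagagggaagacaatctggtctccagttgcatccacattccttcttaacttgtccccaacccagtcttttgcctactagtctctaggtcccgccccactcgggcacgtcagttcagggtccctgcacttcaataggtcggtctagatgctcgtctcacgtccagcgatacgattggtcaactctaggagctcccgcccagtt
The match nearest the start begins 11 bases before it in Nfkb2, 29 in Nfkbia and 12 in Tnfaip3. Cish has 0 matches of the kappaB consensus, and its 2 matches of TTCNNNGAA begin at bases 1 and 12 after the start. Bcl3, also called at all 3 times, has a match of the consensus from base 3 after the start, and Socs1 has a match of neither motif in its window. A match is a description of the letters and not of binding.

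Most other genes of the pathway were not called. Of 49 other NF-kB pathway genes, 8 were called at 3 h (7 of them higher), 10 at 12 h and 4 at 72 h (every one higher). Over all genes 7.37%, 9.06% and 8.85% were called in either direction, and 3.26%, 4.10% and 4.55% were called higher. The median log2 difference of the 49 genes was 0.37, 0.42 and 0.06. Of the remaining subunits, Rel, which encodes c-Rel, was at 1.74, 1.36 and 1.47 in sham, 2.38, 3.25 and 3.35 at 3 h, 3.55, 2.89 and 2.95 at 12 h, then 1.66, 1.86 and 2.11 at 72 h. It was called at 3 h (1.47 ± 0.27, SE) and 12 h (1.60 ± 0.27), with limma adjusted p-values of 0.00481 and 0.00245. Rela, which encodes p65, was not called at any time, with log2 differences of 0.82, 0.52 and 0.33. Its arrays at 3, 12 and 72 h nevertheless lay above all sham arrays.

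Among the other IkB proteins, Nfkbid (IkBNS, another nuclear member) was called at 3, 12 and 72 h, with log2 differences of 1.20, 2.22 and 1.18, and Nfkbie (IkBε) at 12 h, with 1.29. Nfkbib (IkBβ) was not called and its differences were 0.60, 0.24 and -0.32. Of the 6 IKK and NIK kinases 1 was called, namely Ikbke (1.34 at 12 h). Chuk, Ikbkb and Ikbkg, the genes of the IKK complex, lay between -0.38 and 0.54 at all times, Tbk1 between -0.14 and 0.71 and Map3k14, which encodes NIK, between 0.11 and 0.76. Of 22 receptor adaptors and upstream kinases, 2 were called higher at 3 h and 2 at 12 h. Myd88, the adaptor of Toll-like and IL-1 receptors, was higher by 1.05 and 1.22, Traf1 by 1.70 at 12 h and Ripk2 by 1.20 at 3 h.

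Of 16 other inhibitors of NF-kB activation, 3, 4 and 3 were called higher at 3, 12 and 72 h. Tnip3, whose product works with A20, was higher by 4.63, 3.89 and 1.75 at these times, at 3 h a larger fitted difference than that of any of the 10 genes. Irak3, an inactive kinase that restrains Toll-like receptor signals, was higher by 1.85, 3.48 and 2.56. Birc3, which encodes cIAP2, was called at 3 h (1.61) and 12 h (1.46) and Tnfaip8l2 at 72 h (1.85). Of 24 measured NF-kB target genes 16, 16 and 14 were called higher at the 3 times, and the median log2 difference was 2.33, 2.77 and 1.96. Cxcl1 was higher by 8.58 at 3 h and Il1b by 8.35 and Lcn2 by 8.93 at 12 h. Cxcl2 was above background on 0 sham arrays and at 12 h it was at least 927-fold higher.

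Of the 6 other SOCS family genes Socs3, the main inhibitor of IL-6 signaling, was called. It stood at 0.94, 1.35 and 2.50 in sham, 5.52, 6.32 and 6.13 at 3 h, 5.95, 5.71 and 5.64 at 12 h, then 4.96, 4.48 and 4.89 at 72 h. Sham replicate 3 was high for Socs3 and for Socs1. The log2 difference of Socs3 was 4.40 ± 0.36 (SE), 4.17 ± 0.36 and 3.18 ± 0.36, with limma adjusted p-values of 6.83e-05, 5.72e-05 and 0.000355. The differences of Socs2, Socs4, Socs5, Socs6 and Socs7 lay between -0.74 (Socs2 at 12 h) and 0.63 (Socs4 at 3 h), and they were not called. Of 19 JAKs, STATs and other inhibitors of JAK-STAT signaling, 3, 4 and 1 were called higher at the 3 times and 0 lower. Stat3 (1.28) and Ptpn2 (1.27) were called at 3 h, Stat4 (1.39) at 12 h and Ptpn1 at all 3 times (1.10, 1.64 and 1.15). Of 12 other proteins of mRNA decay, Zc3h12a, which encodes the RNase Regnase-1, was called at all 3 times (2.39, 2.76 and 1.54) and Zc3h12c at 12 h (1.03) and 72 h (1.25), and the other 10 were not called at any time.

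**Figure D5:**
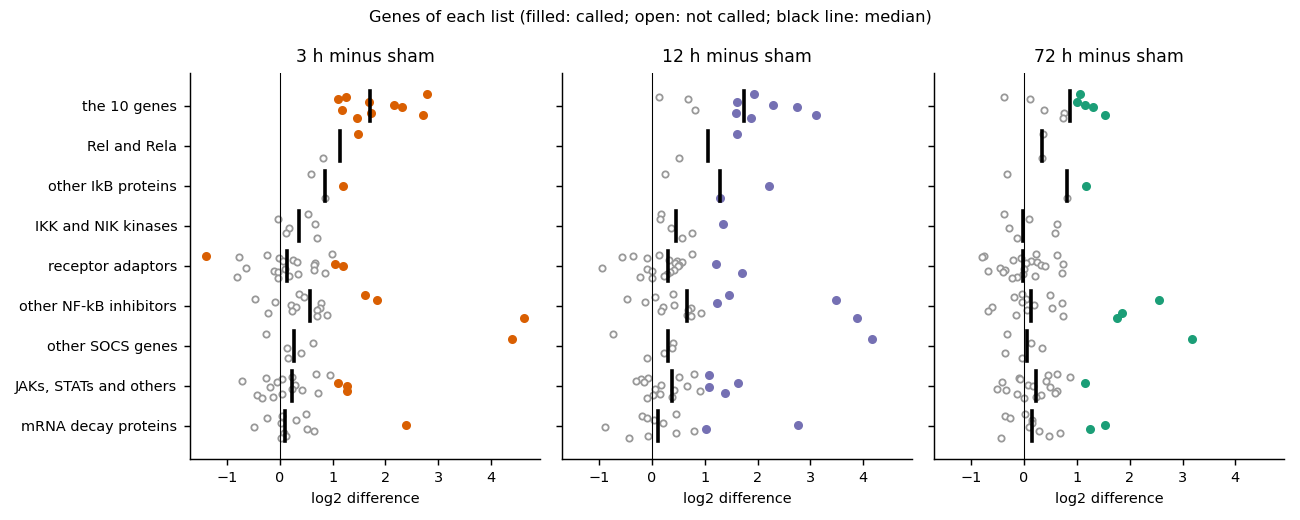
Log2 difference from sham of the genes of each list at 3, 12 and 72 h, with filled points for called genes, open points for the others and a black line at the median. The median of the 10 genes is 1.71 at 3 h and 1.74 at 12 h, and that of the IKK and NIK kinases, adaptors and SOCS genes stays below 0.5 at every time.

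The genes whose pattern was most like that of each of the 10 were found by Pearson correlation over the 12 arrays among 15093 genes above background on all of them, as a description. The 12 points form 4 groups of 3, and all genes share the arrays and their scaling. The nearest were Ptpn2 and Stk40 for Nfkb1 (r = 0.98 and 0.98), Kcne4 and Icam1 for Nfkb2 (0.99 and 0.98), and Rnaset2a and Rela for Relb (0.96 and 0.95). For the IkB genes they were Klhl2 and Casp4 for Nfkbia (0.97 and 0.97), Nr4a1 and Ppp1r15a for Nfkbiz (0.98 and 0.98), and Atf4 and Tnfrsf12a for Bcl3 (0.99 and 0.99). For the rest they were Klhl2 and Kcne4 for Tnfaip3 (0.98 and 0.98), Kdm6b and Plk3 for Zfp36 (0.99 and 0.98), Bid and Mfsd2a for Socs1 (0.98 and 0.98), and Hand1 and Fkbp5 for Cish (0.98 and 0.98). Among the 10 genes themselves, r with Cish was between 0.47 (Zfp36) and 0.86 (Nfkb1), and r between the others was between 0.81 (Nfkb1 and Zfp36) and 0.99 (Nfkbiz and Zfp36).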

How the data were processed

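RNA from 12 cecum samples was hybridised to 12 1-colour arrays, 3 for each of sham, 3 h, 12 h and 72 h. The authors scanned the arrays on an Agilent SureScan scanner, and the spots were quantified with Feature Extraction 11.5.1.1. The deposited intensity of each spot is linear and background-corrected and was not normalized between arrays. A deposited log2 table, which the authors scaled to the 75th percentile and which is centred on each row's median as its values show, was used as an alternative.

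Of 62976 spots, 3671 control spots and those flagged as outliers (53 to 152 per array) were left out, spots of a probe were averaged and the 75th percentile of the array was subtracted from the log2 intensity. A gene was represented by the probe of the highest mean level. Differences were tested with limma 3.58.1 (R 4.3.3) fitted to the 12 arrays as 4 group means, and p-values were adjusted by Benjamini and Hochberg's method across 56605 probes. A call required more than 2-fold and an adjusted p below 0.05. The scripts were tested on simulated data. The number of arrays limits the precision, and each p-value sets a difference of group means against the spread between arrays within the groups.

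The genes and lists were chosen with earlier results of these data known. The genes named are the 10 with every probe, every gene of other lists of 6 genes or fewer, from longer lists up to 4 called genes with the largest absolute log2 difference at any time, and the 2 genes most alike in pattern to each of the 10. The result of 1 gene that this rule names is not reported here. Markers of other cell types were named after their values were seen. Alternatives were the normalization, background correction, probe choice, threshold, slide and replicate blocks, leaving out each array, and, added after seeing the data, the arrays of 1 slide only. Samples with the same replicate number did not deviate together (correlations of -0.16 to 0.09), and the numbers were not used as pairs. Probe positions are those of mm9 in the files.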

Additional observations from a re-analysis of the deposited data

Results flagged for a closer look

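The differences between 2 times after cauterization were tested directly, with the sham arrays shared by both times, and 9 of them passed the rule of more than 2-fold with a limma adjusted p below 0.05. As log2 differences of the later minus the earlier time, Cish was at -1.12 between 3 and 12 h. Between 12 and 72 h Nfkbia was at -1.13, Nfkbiz at -1.43, Tnfaip3 at -1.57 and Zfp36 at -1.13. Between 3 and 72 h Nfkbia was at -1.01, Bcl3 at -1.73, Tnfaip3 at -1.17 and Cish at -1.64.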

How the results depend on the processing

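The counts of the 10 genes called at 3, 12 and 72 h were 10, 7 and 5. A limma test against 2-fold itself (treat) left 1, 3 and 0. Over all 37074 genes treat left 297, 534 and 433 higher and 73, 195 and 101 lower. Slide as a block left 0 at 72 h. Averaging a gene's probes left 8, 6 and 2, where 1099, 1418 and 1483 of all genes were higher. The slide block rests on 1 array for the 72 h comparisons and also cut the calls over all genes, to 591 higher and 561 lower at 72 h. Leaving out 1 array gave 10 to 10, 7 to 7 and 1 to 5. From 3 to 12 h the count of 1 became 2 with the adjusted p alone and 0 with treat, where 1911 and 7 of all genes were lower. From 12 to 72 h the count of 4 became 2 with quantile normalization and 1 with a fit of those 2 groups alone. It became 8 with the adjusted p alone, 0 with treat, and 1 to 4 leaving out 1 array. Over all genes the adjusted p alone called 3628 lower from 12 to 72 h and treat 79. Slide as a block and the arrays of slide 2 only (chosen after seeing the data) rest on 1 array at 12 h, so their counts are not given. From 3 to 72 h the count of 4 became 2 with quantile normalization, with the percentile over bright probes, with slide as a block or with those 2 groups alone. It became 10 with the adjusted p alone, 1 with treat and 2 to 7 leaving out 1 array. Over all genes the adjusted p alone called 9919 lower from 3 to 72 h and treat 207. The 49 pathway genes had 8, 10 and 4 calls at 3, 12 and 72 h. These became 25, 24 and 16 with the adjusted p alone and 1, 3 and 1 with treat, and 1 at 72 h with slide as a block. The adjusted p alone called 3336, 3336 and 2954 of all genes higher at these times and 3597, 4514 and 4725 lower. Nfkb2 from 3 to 12 h, at -0.06 and not called, became 0.026 with quantile normalization, 0.0002 with normexp and -0.29 to 0.13 leaving out 1 array, turning upwards without 3 h replicate 2 (0.03), 3 h replicate 3 (0.07) or 12 h replicate 2 (0.13). Nfkbia, at 0.12, lay from -0.13 (without 12 h replicate 1) to 0.30. Of 1540 alternatives for single genes 1414 kept direction and call, 97 lost the call, 23 gained it and 6 reversed, and the cause was not tested. The 1540 include results that were not called, and of 797 alternatives for called results 700 kept the call. Over all genes, normexp moved the split at 3 h from 1209 higher and 1523 lower to 631 and 207, at 12 h from 1521 and 1839 to 828 and 504, and at 72 h from 1687 and 1595 to 871 and 388, and quantile normalization gave 1851 and 1098 at 72 h. Dim probes close to background are limited by their signal.

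With the replicate number as a block the counts of the 10 genes were 10, 7 and 5 against sham and 1, 4 and 4 between times, and those of the pathway genes 8, 10 and 4, so that no count changed. The best match of an array was one of its own number for 3 of 12 arrays.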
